A study of Mus musculus with 1 sample.

Results

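The phagocyte NADPH oxidase and its relatives were examined in Ctrl c-kit+ BM cells. The group comprised 8 genes of the 54532 in the library, taken by name for their place in the complex that RAC2 activates in neutrophils or in the NOX family. They are *Cybb*, *Cyba*, *Ncf1*, *Ncf4* and *Hvcn1* of the phagocyte system, and *Nox1*, *Nox4* and *Duox2* among its relatives. The study set c-kit+ BM cells of *Gadd45g*-deficient mice with myeloproliferative neoplasm (MPN), made with Vav-Cre, which deletes in hematopoietic cells, beside those of Ctrl mice. The sample analysed here is 1 RNA-seq library of the Ctrl group, from C57BL/6 mice whose genotype is given as wild type. The age, the number of mice pooled and whether the Ctrl mice carried Vav-Cre are not given in the labels. The mice with MPN were not analysed here. Each value is thus a level in Ctrl cells, with no replicate and no test between groups. The labels place the cells in a gate free of lineage markers, yet 10 genes of the neutrophil lineage had a median of 2450 FPKM. The part of such cells in the levels of the oxidase genes was not tested.

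The phagocyte NADPH oxidase is the enzyme with which neutrophils and macrophages make superoxide. Its membrane part, cytochrome b558, is a pair of proteins: gp91phox (NOX2), encoded by *Cybb*, passes electrons from NADPH to oxygen, and p22phox, encoded by *Cyba*, keeps it stable. On activation cytosolic proteins, p47phox (*Ncf1*) and p40phox (*Ncf4*) among them, move to the membrane, where RAC2 in its GTP-bound form joins the complex. Inherited loss of these subunits causes chronic granulomatous disease, in which phagocytes fail to kill certain microbes.

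The 5 phagocyte genes were all expressed and the 3 relatives were at or near 0. Levels are in FPKM, the fragments on a gene scaled by its length and by the total of the library, and a gene was counted as expressed at 1 FPKM. By this rule 5 of the 8 genes were expressed, beside 22.2% of all genes and 46.8% of protein-coding genes. At 100 FPKM, a level chosen after the values were seen, 4 of the 8 remained, beside 2.06% of protein-coding genes. Intervals below are 95% Wilson intervals of the recovered fragments, which reflect counting error and hold no spread between mice. In 1 bulk library, the number of cells of a type and the RNA per cell cannot be told apart.

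**Figure D1:**
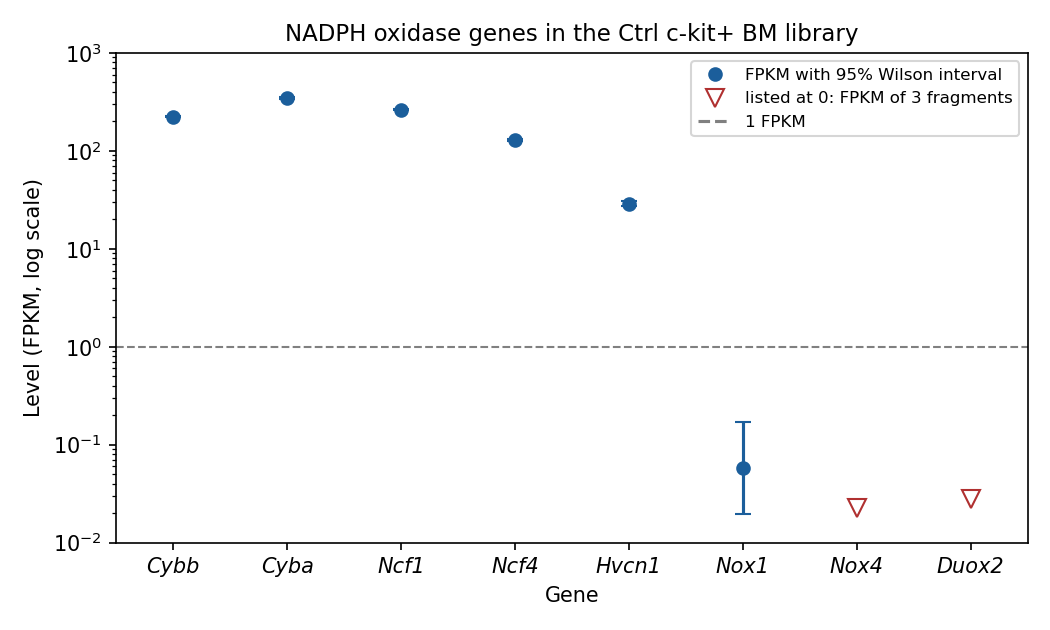
Level of each of the 8 genes in the Ctrl library, in FPKM on a log axis, with bars for the 95% Wilson interval and open triangles for the FPKM that 3 fragments would give to a gene listed at 0. The 4 oxidase subunits lie between 129 and 348 FPKM and *Hvcn1* at 29.0 FPKM, all above the dashed line at 1 FPKM, while *Nox1*, *Nox4* and *Duox2* lie below it.

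The promoters of 3 expressed genes and of the nearest relative of *Cybb* are shown first, to set the start of genes at high levels beside that of a gene near 0. The sequences are those of RefSeq on GRCm38.p6, 5′ to 3′ on the gene's strand, from 250 bases before to 50 bases after the start of the gene in RefSeq, and 6 of the 8 genes have one in the table used. Positions below count from that RefSeq start. In *Cybb* it lies 18447 bases inside the gene as GENCODE M21 draws it and in *Nox1* 110102 bases inside, since GENCODE adds transcripts that start further upstream, and in either gene it is the first base of 1 GENCODE transcript. In *Ncf1* both starts are the same base, and in *Cyba* the RefSeq start lies 10 bases before that of GENCODE. Capitals mark matches on either strand to GAGGAA, the core bound by the myeloid factor PU.1, to CCAAT, to TATAAA, or to GGGCGG, the GC box of SP1. The matches do not overlap one another, and the motifs were chosen after the promoters had been read.
Cybb, chrX:9469275-9469574, reverse strand: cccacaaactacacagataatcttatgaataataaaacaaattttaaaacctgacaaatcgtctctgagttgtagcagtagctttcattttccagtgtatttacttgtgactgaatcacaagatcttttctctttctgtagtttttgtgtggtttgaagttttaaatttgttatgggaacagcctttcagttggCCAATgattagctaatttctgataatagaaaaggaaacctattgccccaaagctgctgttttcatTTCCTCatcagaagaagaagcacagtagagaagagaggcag
Cyba, chr8:122432891-122433190, reverse strand: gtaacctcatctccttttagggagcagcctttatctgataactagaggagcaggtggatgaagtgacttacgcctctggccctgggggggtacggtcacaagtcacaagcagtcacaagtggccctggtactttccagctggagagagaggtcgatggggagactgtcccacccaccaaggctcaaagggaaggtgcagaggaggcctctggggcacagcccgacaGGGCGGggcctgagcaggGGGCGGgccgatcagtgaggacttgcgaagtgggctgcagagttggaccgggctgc
Ncf1, chr5:134229576-134229875, reverse strand: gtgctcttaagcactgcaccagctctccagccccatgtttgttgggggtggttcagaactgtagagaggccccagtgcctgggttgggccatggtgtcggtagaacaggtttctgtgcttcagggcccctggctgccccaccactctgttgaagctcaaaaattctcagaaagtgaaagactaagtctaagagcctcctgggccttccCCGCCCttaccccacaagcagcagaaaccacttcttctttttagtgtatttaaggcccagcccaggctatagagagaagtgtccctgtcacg
Nox1, chrX:134111805-134112104, reverse strand: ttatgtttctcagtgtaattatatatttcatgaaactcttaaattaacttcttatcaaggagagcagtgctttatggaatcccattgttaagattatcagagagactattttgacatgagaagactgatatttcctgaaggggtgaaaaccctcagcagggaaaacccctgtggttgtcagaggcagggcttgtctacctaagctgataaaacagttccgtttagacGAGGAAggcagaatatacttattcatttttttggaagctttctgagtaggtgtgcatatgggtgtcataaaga

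The *Cybb* promoter was poor in G and C, at 35.3%, with 1 CpG, and 3.98% of the 32851 promoters had a lower share. It held a CCAAT match that starts 56 bases before the RefSeq start. A GAGGAA match on the opposite strand starts at base 10 after it. The *Cyba* promoter had 60.7% G and C and 9 CpG, with 2 GC boxes that start 24 and 6 bases before its RefSeq start. The *Ncf1* promoter had 54.0% G and C and 3 CpG, with 1 GC box on the opposite strand that starts 42 bases before its RefSeq start. The 3 promoters thus shared no single one of these motifs as written, while the levels of their genes ran from 223 to 348 FPKM. The *Nox1* promoter, of a gene with 3 fragments, resembled that of *Cybb* in composition, at 38.0% G and C with 2 CpG. It too held a GAGGAA match, 23 bases before the RefSeq start. *Nox4* had the richest promoter, at 68.3% G and C with 24 CpG and a GC box, and *Duox2* had 55.3% with 10 CpG and a CCAAT match. None of the 6 held TATAAA. Over all promoters GAGGAA occurred in 28.3%, CCAAT in 37.4%, TATAAA in 13.6% and the GC box in 35.7%. A match is thus common and describes these letters alone.

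Both genes of the membrane cytochrome were high. *Cybb* (ENSMUSG00000015340), at chrX:9435252-9487771 on the reverse strand in GRCm38, had 222.7 FPKM from 20420 fragments (interval, 219.7 to 225.8), the 182nd highest level among protein-coding genes. *Cyba* (ENSMUSG00000006519), at chr8:122424776-122432930 on the reverse strand, had 348 FPKM from 5711 fragments (interval, 339 to 357) and ranked 101st. *Cybb* was thus at 0.640 of the level of *Cyba* (95% exact interval of the ratio, 0.621 to 0.659). Although the 2 proteins pair with one another in the membrane, their mRNAs differed by more than counting error. *Cyba* has 1039 exon bases and *Cybb* 5808, and *Cybb* had 3.58 times the fragments of *Cyba* before division by length.

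The cytosolic subunits were less even. *Ncf1* (ENSMUSG00000015950), whose product p47phox is phosphorylated on activation and carries the cytosolic complex to p22phox, lies at chr5:134220053-134229625 on the reverse strand. It had 264 FPKM from 15250 fragments (interval, 260 to 268) and ranked 144th. *Ncf4* (ENSMUSG00000071715), whose product p40phox binds a phosphoinositide of the phagosome membrane, lies at chr15:78244801-78262580 on the forward strand. It had 129 FPKM from 4119 fragments (interval, 125 to 133) and ranked 360th. *Ncf1* was 2.04 times *Ncf4* (interval, 1.97 to 2.11).

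Ordered by FPKM, the expressed members ran *Cyba*, *Ncf1*, *Cybb*, *Ncf4* and *Hvcn1*, and no 2 neighbours had overlapping intervals. *Cyba* was 1.32 times *Ncf1* (interval, 1.28 to 1.36), *Cybb* 0.844 of *Ncf1* (interval, 0.827 to 0.862) and 1.72 times *Ncf4* (interval, 1.67 to 1.78). The same order held with the length of the longest coding transcript, at 486, 335, 272, 178 and 36.9 FPKM. The 4 oxidase subunits together spanned a factor of 2.70, or 2.73 with that length. By fragments alone the order was *Cybb*, *Ncf1*, *Cyba*, *Ncf4* and *Hvcn1*, but fragments of different genes are comparable only per length.

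**Figure D2:**
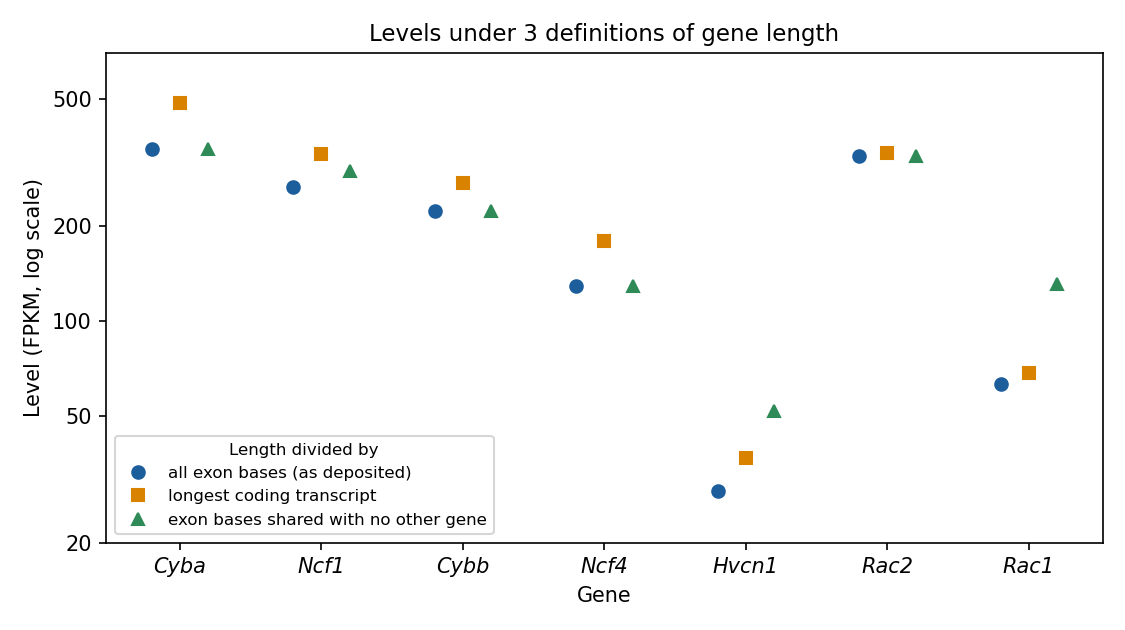
Level in FPKM on a log axis for 7 genes, with 3 symbols per gene for the length used: all exon bases, the longest coding transcript, or exon bases shared with no other gene. *Hvcn1* moves from 29.0 to 52.0 FPKM without shared bases, while the order of *Cyba*, *Ncf1*, *Cybb* and *Ncf4* is the same with each length.

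*Hvcn1* (ENSMUSG00000064267) encodes a voltage-gated proton channel, which lets protons out to balance the electrons that the oxidase moves across the membrane. It lies at chr5:122206804-122242297 on the forward strand. It had 29.0 FPKM from 1632 fragments (interval, 27.6 to 30.5), ranked 1814th among protein-coding genes and was at 0.130 of *Cybb* (interval, 0.124 to 0.137). Of its 3563 exon bases, 1574, or 44.2%, are also exons of *Tctn1* on the opposite strand, which had 2.18 FPKM. Divided by the other bases alone its level would be 52.0 FPKM, or 0.233 of *Cybb*. Whether fragments on the shared bases were counted is not given. *Ncf1* shares 408 exon bases, or 11.1%, with *Gtf2ird2* at 6.28 FPKM on the opposite strand, and would have 297 FPKM without them. *Cybb*, *Cyba* and *Ncf4* share none with another gene, nor did any stretch of 50 bases of their longest coding transcripts occur in the transcripts of another gene.

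The relatives have the same catalytic core as *Cybb* but belong to other tissues: *Nox1* is known from colon epithelium, *Nox4* from kidney, and *Duox2* from thyroid and gut, where it makes the hydrogen peroxide used by peroxidases. *Nox1* (ENSMUSG00000031257), at chrX:134086421-134221956 on the reverse strand, had 3 fragments, which give 0.0575 FPKM (interval, 0.0195 to 0.169). *Cybb* was 3876 times *Nox1*, with a wide interval of 1326 to 18795 because of the 3 fragments. Of the exon bases of *Nox1*, 399, or 12.1%, are also exons of *Cstf2* on the opposite strand, at 7.51 FPKM, and on which bases the 3 fragments lay is unknown. *Nox4* (ENSMUSG00000030562), at chr7:87246096-87398710 on the forward strand, and *Duox2* (ENSMUSG00000068452), at chr2:122279247-122298449 on the reverse strand, were listed at 0. A count of 0 was given a limit of 3 fragments, which corresponds to 0.0224 FPKM of *Nox4* and 0.0281 FPKM of *Duox2*. Set against these limits, *Cybb* was 9928-fold higher than *Nox4* and 7935-fold higher than *Duox2* over all exon bases. The Wilson intervals reach higher, to 0.0287 FPKM for *Nox4* and 0.0359 FPKM for *Duox2*. The 2 ratios are thus not lower bounds under those intervals. The ratio for *Nox4* falls to 5376-fold with the longest coding transcript as length.

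The coding sequences of the family are alike, so it was asked whether fragments of *Cybb* could be counted for a relative. In aligned bases the coding sequence of *Cybb* was identical to that of *Nox1* at 65.6%, to that of *Duox2* at 62.6% and to that of *Nox4* at 61.7%. The longest run of identical bases was 17 with *Nox1*, 14 with *Duox2* and 13 with *Nox4*, and no stretch of 50 bases was shared. The runs with *Nox1* and *Duox2* are shown in capitals from GENCODE M21 transcripts, with up to 20 bases on each side, to let the differences around them be seen. The run lies at bases 211 to 227 of both coding sequences for *Nox1*, and at 1243 to 1256 of *Cybb* and 4162 to 4175 of *Duox2*.
Cybb, bases 191 to 247: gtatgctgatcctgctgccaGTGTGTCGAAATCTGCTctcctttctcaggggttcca
Nox1, bases 191 to 247: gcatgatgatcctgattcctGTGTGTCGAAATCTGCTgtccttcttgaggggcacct
Cybb, bases 1223 to 1276: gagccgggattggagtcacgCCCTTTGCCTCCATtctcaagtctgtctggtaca
Duox2, bases 4142 to 4195: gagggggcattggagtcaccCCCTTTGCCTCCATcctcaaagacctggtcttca

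The transcript of *Duox2* shared 6.84% of its stretches of 50 bases with that of *Duox1*, which was itself listed at 0. The other NOX genes and their subunits were likewise at or near 0, apart from 1. Of 7 such genes 1 reached 1 FPKM, beside 46.8% of protein-coding genes. Listed at 0 were 4, namely *Nox3*, *Duox1*, *Duoxa1* and *Duoxa2*, of which the latter 2 encode the maturation factors of the DUOX enzymes. *Noxo1*, which stands in for p47phox in the NOX1 enzyme, and *Noxa1*, which encodes another cytosolic subunit of that enzyme, had 4 fragments and 1 fragment. Of the exon bases of *Noxo1* 70.4% are also exons of *Tbl3* on the opposite strand, at 4.92 FPKM. Without them *Noxo1* would have 0.284 FPKM. *Duoxa1* and *Duoxa2* share 682 exon bases with one another. Whether fragments on such shared bases were counted is not given, which limits these low counts. The exception was *Poldip2* at 10.2 FPKM, whose product binds NOX4 through p22phox and also has roles outside the oxidase. It had 18.8 FPKM with the longest coding transcript. Thus *Cyba*, whose product p22phox also serves NOX1 and NOX4, was high while the mRNAs of those enzymes were at or near 0.

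**Figure D3:**
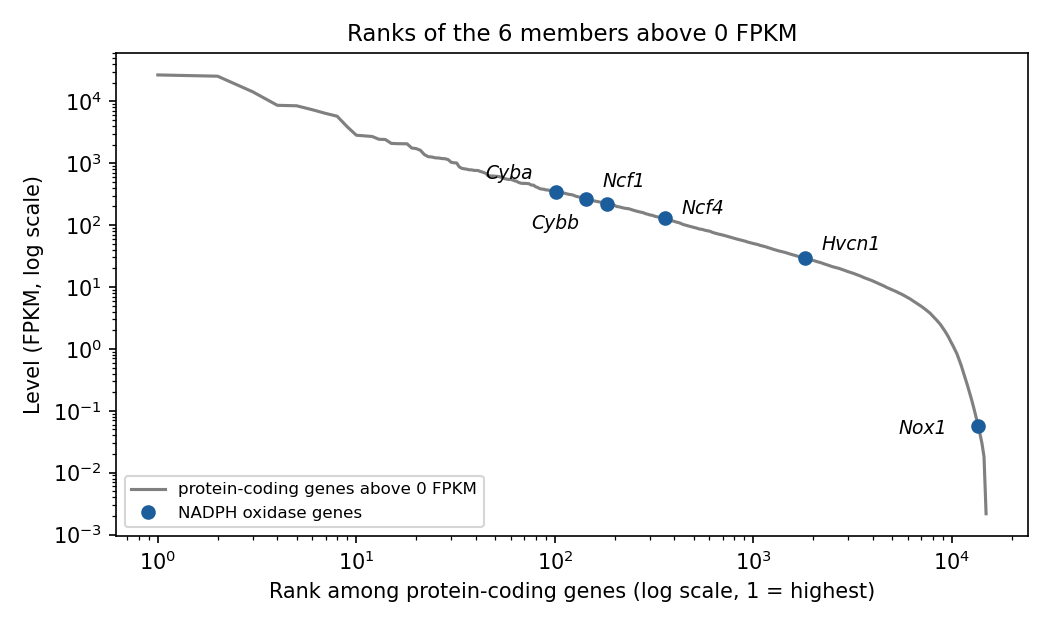
FPKM against rank among protein-coding genes above 0 FPKM, both on log axes, for all such genes (line) and for the 6 members above 0 (points). The 4 oxidase subunits lie between ranks 101 and 360, *Hvcn1* at 1814, and *Nox1* at 13539.

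Genes whose products work with the oxidase were expressed as well. All 9 genes in a list of partners reached 1 FPKM, beside 46.8% of protein-coding genes. The median of the 9 was 67.0 FPKM, against 1.77 FPKM over all genes above 0 and 4.22 FPKM over protein-coding genes above 0. *Rac2*, the GTPase of the complex, had 332 FPKM. *Cybb* was at 0.670 of *Rac2* (interval, 0.656 to 0.684), *Ncf1* at 0.794 (interval, 0.776 to 0.811) and *Cyba* at 1.05 (interval, 1.02 to 1.08). *Rac1*, which can take the place of RAC2 in macrophages, had 63.5 FPKM. Of its exon bases 51.4% are also exons of *Daglb* on the opposite strand, and without them it would have 130.5 FPKM. The highest partner was *Arhgdib*, whose product holds RAC proteins inactive in the cytosol of blood cells, at 588 FPKM. *Prkcd*, a kinase that phosphorylates p47phox, had 77.3 FPKM, or 150.3 FPKM with the longest coding transcript. *Rap1a*, a small GTPase found with the cytochrome, had 67.0 FPKM. *Cybc1*, needed for stable cytochrome protein, had 26.3 FPKM, or 45.9 FPKM with that length, and *Nrros*, which lowers NOX2 protein, had 35.6 FPKM.

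The oxidase consumes NADPH, and 8 of 9 genes of NADPH supply reached 1 FPKM. Beside this count and those below stands the share of 46.8% of protein-coding genes. The median of the 9 was 35.4 FPKM, or 114 FPKM with the longest coding transcript as length. In the pentose phosphate pathway *Taldo1* had 327 FPKM and *Tkt* 154 FPKM, though neither product makes NADPH itself. *G6pdx*, whose product makes the first NADPH of the pathway, had 120.5 FPKM and *Pgd* 108.5 FPKM. With the longest coding transcript the order of the last pair turned, at 315 FPKM for *Pgd* and 140 FPKM for *G6pdx*, while *Taldo1* had 522 FPKM and *Tkt* 352 FPKM. The gene below 1 FPKM was *Me1*, the cytosolic malic enzyme, with 4 fragments. Of the enzymes that act on superoxide or hydrogen peroxide all 6 reached 1 FPKM, from *Sod2* at 5.75 FPKM to *Gpx1* at 1722 FPKM. *Mpo*, which turns hydrogen peroxide into hypochlorous acid in neutrophils, had 434 FPKM and *Cat*, catalase, 133 FPKM. The 5 transcription factors known to act on phagocyte oxidase genes were all expressed, with *Spi1*, the gene of PU.1, at 137 FPKM, *Cebpe* at 131 FPKM and *Irf8* at 46.5 FPKM. With the longest coding transcript *Irf8* had 115 FPKM and *Sod2* 9.82 FPKM, while *Sod1* moved from 39.8 to 246.7 FPKM.

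**Figure D4:**
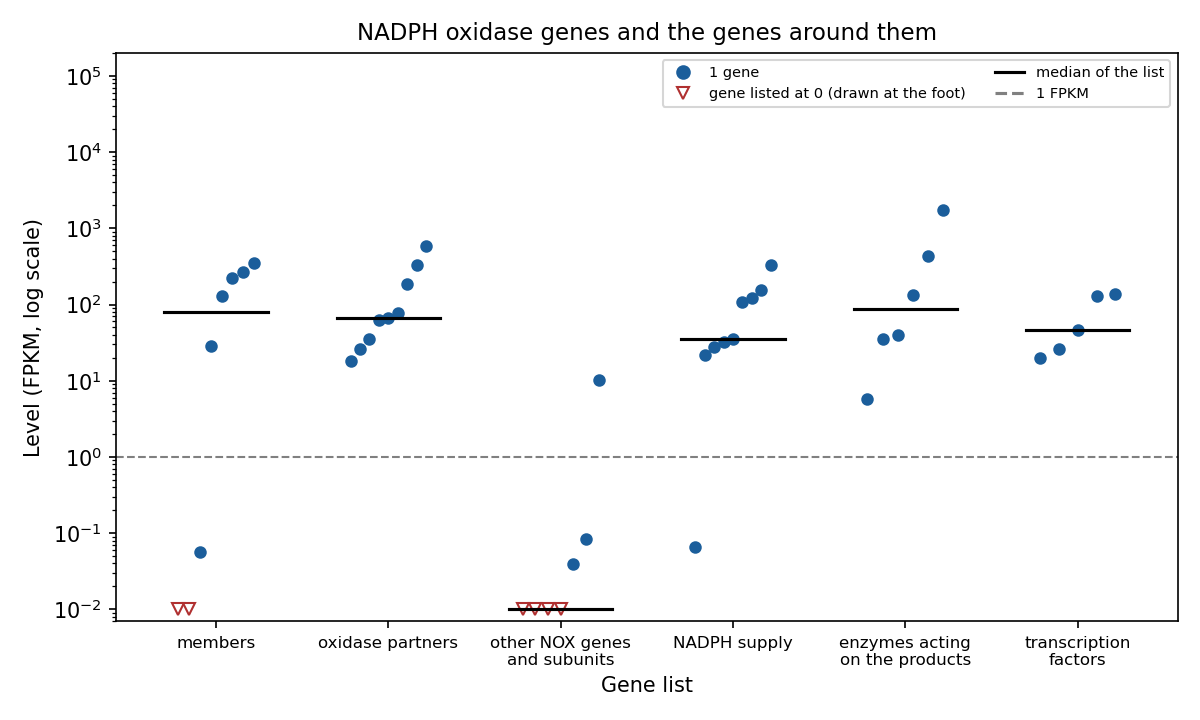
FPKM on a log axis for each gene of the 8 members and of 5 related lists, with a bar at the median of each list and open triangles, drawn at the foot, for genes listed at 0. The medians are 79.1 FPKM for the members, 67.0 for the partners, 0 for the other NOX genes, 35.4 for NADPH supply, 86.6 for the enzymes acting on the products and 46.5 for the transcription factors.

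The label of the cells was compared with marker genes. Of 6 progenitor genes 5 reached 1 FPKM. Beside this count and those below stands the share of 46.8% of protein-coding genes. The median of the 6 was 6.02 FPKM and their sum 41.1 FPKM, and *Kit*, which encodes c-kit, had 7.17 FPKM. The lowest oxidase subunit was 18.0 times *Kit*, and *Hvcn1* 4.05 times, or 7.25 times without exon bases shared with another gene. With the longest coding transcript as length *Kit* rose to 12.2 FPKM and the progenitor median to 11.2 FPKM. *Ncf4*, the lowest subunit, then had 178 FPKM and *Hvcn1* 36.9 FPKM, which lowers both contrasts with *Kit*. The labels add that lineage markers were absent from the gate, yet all 10 genes of the neutrophil lineage were expressed, from 109 to 26677 FPKM. The lowest of them were *Cxcr2* at 109 FPKM and *Ly6g* at 194 FPKM, and the stage of the neutrophil cells was not tested. The sum of the 10 was 53886 FPKM, which is 12.6% of the summed FPKM of the library. The 6 granulocyte-macrophage progenitor (GMP) genes, which include *Mpo*, also counted among the enzymes above, ran from 38.1 to 781 FPKM with a sum of 1939 FPKM. The 4 oxidase subunits had 964 FPKM in sum, and their levels lay within the ranges of the GMP and neutrophil genes and also within those of the B cell genes, from 17.1 to 2005 FPKM, and the eosinophil genes, from 3.30 to 2766 FPKM. Markers of other cells known to carry the oxidase were also present. Of 8 monocyte and macrophage genes 7 reached 1 FPKM (median, 36.1 FPKM; sum, 241 FPKM), and so did all 6 B cell genes (median, 85.3 FPKM; sum, 2384 FPKM) and all 5 eosinophil genes (median, 13.2 FPKM; sum, 3010 FPKM). The B cell and eosinophil sums came mostly from *Ighm* at 2005 FPKM and *Prg2* at 2766 FPKM. The other B cell genes ran from 17.1 to 173 FPKM and the other eosinophil genes from 3.30 to 216 FPKM. The 5 erythroid genes summed to 42452 FPKM and the 5 T cell genes to 31.8 FPKM. Their part in the levels of the oxidase genes was not tested.

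Markers of epithelial, endothelial and stromal cells, among which the relatives are known, had medians of 0.683, 0.203 and 1.12 FPKM. The median over protein-coding genes above 0 was 4.22 FPKM. Of 5 epithelial genes 2 reached 1 FPKM, with a sum of 6.35 FPKM, of 4 endothelial genes 1, with a sum of 1.66 FPKM, and of 4 stromal genes 2, with a sum of 9.27 FPKM. Of protein-coding genes 46.8% reached 1 FPKM, and the epithelial and stromal counts are near that share. The stromal sum came mostly from *Cxcl12* at 6.57 FPKM, and the other stromal genes ran from 0.449 to 1.39 FPKM. None of these markers was at 0. The lowest were *Emcn* at 0.0351 FPKM and *Vil1* at 0.0535 FPKM. Each rests on 3 fragments, the limit given to a count of 0.

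**Figure D5:**
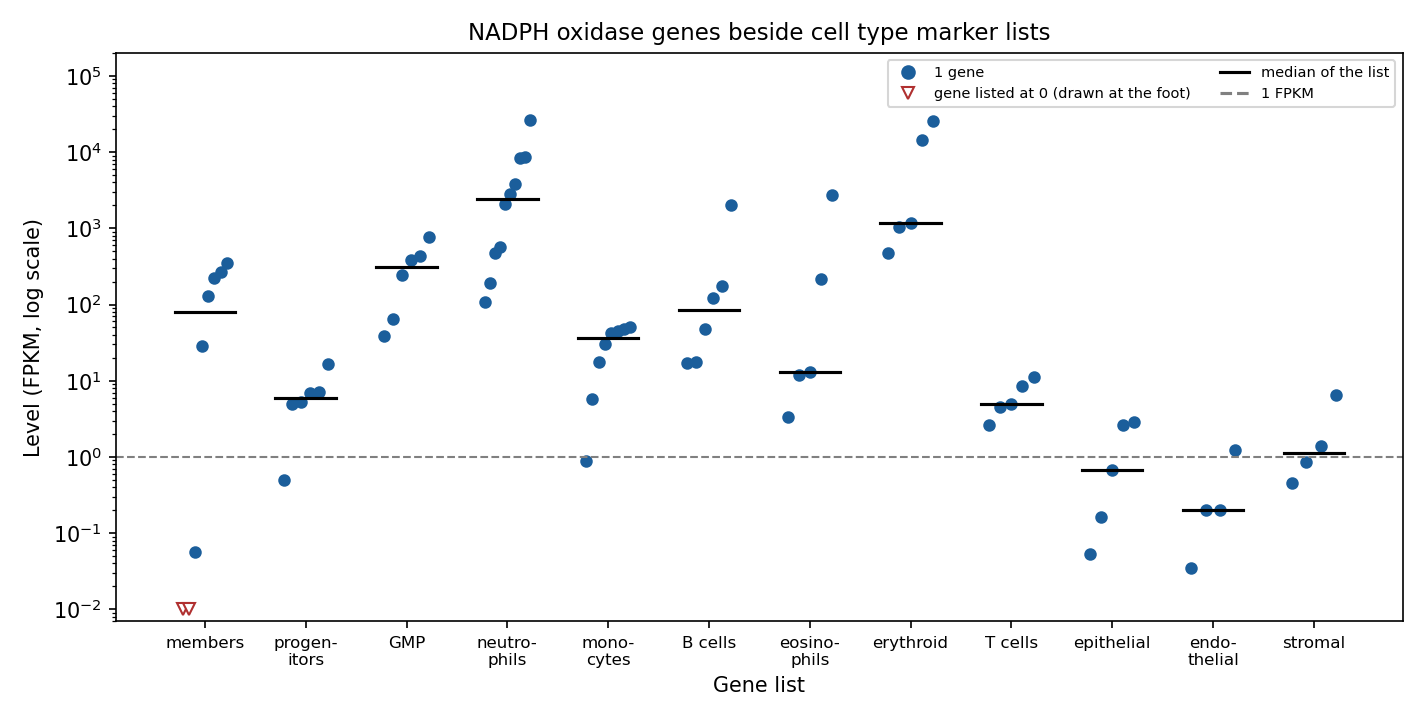
FPKM on a log axis for the 8 members and for the genes of 11 cell type marker lists, with a bar at the median of each list. The neutrophil and erythroid lists lie highest, at medians of 2450 and 1189 FPKM, and the epithelial and endothelial lists lie lowest, at 0.683 and 0.203 FPKM.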

How the data were processed

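RNA of sorted c-kit+ BM cells from Ctrl mice was sequenced on an Illumina HiSeq instrument, and 1 library was analysed. The deposited values are FPKM per Ensembl gene, made by the authors. The submitters' processing notes name HISAT2 2.0.5, featureCounts 1.5.0-p3 and mm10, while annotation and strandedness are not given in the sources used here. Names, coordinates and lengths (bases covered by any exon) came from GENCODE M21 on GRCm38, which lacks 37 of the 54532 identifiers. FPKM times length was within 0.01 of a whole multiple of 1 common step for 96.4% of the 21313 genes above 0 with a length, including the 6 members above 0, and the multiples were read as fragments. The step corresponds to 15783891 fragments, which was the total used for intervals, and the multiples sum to 17113323. This recovery was tested on simulated data in which the total was the sum of the fragments. In the library these differ, so the simulation does not cover that case. The multiples that are whole sum to 15899824, above the total of the step. They therefore cannot all be fragments counted once out of that total, and the reason was not tested. Intervals cover counting error only, and depth limits the levels that rest on few fragments, such as that of *Nox1*. No likeness of pattern across samples can be computed from 1 library.

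The 8 members and all lists were chosen with earlier results of these data known. Named genes were the members, 5 lists of related genes and 11 marker lists, of which 3 genes have multiples that are not whole and were given no interval. 1 listed gene is not reported here. Ratios of 12 pairs carry exact (Clopper-Pearson) conditional intervals. Coding sequences were aligned globally with Biopython, and stretches of 50 bases were searched on both strands of all GENCODE M21 transcripts. The alternatives were other totals, lengths, intervals, detection minimums and backgrounds. Python 3.11.15, numpy 2.4.6, pandas 2.3.3, scipy 1.17.1, Biopython 1.88 and matplotlib 3.10.9 were used.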

Additional observations from a re-analysis of the deposited data

How the results depend on the processing

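No paired analysis was possible because only 1 library was read. The 5 expressed members were the same number at 0.1 FPKM, at 10 FPKM and at 10 fragments. Leaving the 10 most abundant genes out of the total raised every level by a common factor of 1.35, and leaving out mitochondrial genes by 1.04, so no ratio changed. The median of the 8 members, 79.1 FPKM, was 106.8 and 82.4 FPKM under these, 107.6 FPKM with the longest coding transcript as length, and 90.6 FPKM without exon bases shared with another gene, a length chosen after seeing the data. Exact intervals in place of Wilson intervals leave the levels as they are by construction.

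Ratios compared genes by FPKM, and fragments not divided by length reversed 5 of the 12, because the genes differ in length. These were *Cybb* to *Cyba* (3.58), *Cybb* to *Ncf1* (1.34), *Cyba* to *Ncf1* (0.374), *Cybb* to *Rac2* (1.25) and *Cyba* to *Rac2* (0.351). In fragments the other ratios that moved were *Ncf1* to *Ncf4* (3.70), *Cybb* to *Ncf4* (4.96), *Hvcn1* to *Cybb* (0.0799), *Ncf1* to *Rac2* (0.937), and *Cybb* to the limits of *Nox4* and *Duox2* (6807 for both). With the longest coding transcript, the ratios were 0.560 for *Cybb* to *Cyba*, 1.88 for *Ncf1* to *Ncf4*, 0.812 for *Cybb* to *Ncf1*, 1.45 for *Cyba* to *Ncf1*, 1.53 for *Cybb* to *Ncf4*, 0.802 for *Cybb* to *Rac2*, 1.43 for *Cyba* to *Rac2*, 0.987 for *Ncf1* to *Rac2*, 5376 for *Cybb* to *Nox4* and 8755 for *Cybb* to *Duox2*. Without shared exon bases they were 2.30 for *Ncf1* to *Ncf4*, 0.750 for *Cybb* to *Ncf1*, 1.17 for *Cyba* to *Ncf1*, 0.233 for *Hvcn1* to *Cybb* and 0.893 for *Ncf1* to *Rac2*.

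The median of the members was 44.7 times that of all genes above 0, 37.8 times in fragments and 18.8 times against protein-coding genes. In the same order of settings the partners were at 37.8, 59.3 and 15.9 times, NADPH supply at 19.97, 25.2 and 8.39 times, the enzymes acting on the products at 48.9, 53.6 and 20.5 times and the transcription factors at 26.3, 33.9 and 11.03 times, while the median of the other NOX genes was 0 in each. With the longest coding transcript, a setting added for these lists after seeing the data, the medians were 72.5 FPKM for the partners, 114 FPKM for NADPH supply, 190.02 FPKM for the enzymes and 115 FPKM for the transcription factors.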
